A study of Homo sapiens with 4 samples.

Results

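Cholesterol synthesis and sterol-regulated genes were followed in 4 RNA-seq libraries of human hepatocellular carcinoma (HCC) cell lines. The set held 33 of the 19225 entries of the gene table. Its members were chosen by gene symbol, and the values chosen on were the CPM, counts scaled to a common library size, in the libraries and the fold of sh-WDR4-2 over sh-NC in each cell line, with the direction compared between the lines. These folds are therefore given as a description, with no test. The study asked which genes respond to loss of WDR4, a subunit of the enzyme that methylates tRNA to m7G. HCC-LM3, a human HCC line of high metastatic potential, and Huh-7, a human hepatoma line, each gave 1 library labelled sh-WDR4-2, a short hairpin RNA against WDR4, and 1 labelled sh-NC, the control hairpin. All 4 are labelled as 48 hr, and by the methods of the study the hairpins were delivered by lentivirus with selection of stable cells. The treatment label of the HCC-LM3 sh-WDR4-2 library names WDR4 alone, and that of the Huh-7 sh-WDR4-2 library names siWDR4, a small interfering RNA.

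Cells make cholesterol from acetyl-CoA, first through mevalonate to farnesyl diphosphate, then through squalene to lanosterol, and from lanosterol by a series of demethylations, reductions and shifts of double bonds. The genes of this pathway are switched on together by SREBP transcription factors. When sterols are plentiful, INSIG proteins hold SCAP, the escort of SREBP, in the endoplasmic reticulum, so that SREBP is not cleaved and the pathway is turned down. The liver is the main organ of cholesterol synthesis and output.

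Depth was 29807047 to 40572251 counts per library, and the members held 0.821% to 0.961% of them. With 1 library per group the folds between hairpins have no replicates behind them, and in bulk RNA fewer cells of a type and less RNA per cell cannot be told apart. WDR4 itself had 1009 counts in the sh-WDR4-2 library and 1604 in the sh-NC library of HCC-LM3 cells, or -0.22 on the log2 scale after scaling (counting interval -0.34 to -0.11). The Huh-7 libraries held 990 and 1077 counts of WDR4, which scaled to -0.02 on the log2 scale (-0.15 to 0.11), so directions in Huh-7 cells are those between the libraries as labelled. The hepatocyte markers AFP, ALB, TTR, APOA2, FGB and TF were near 0 in all 4 libraries, with no marker above 0.138 CPM, which goes against the liver origin in the labels.

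The stretches before the start sites of 6 members are shown because the results turn on these genes or, for SREBF2, because its stretch held the full sterol motif. They are the 250 bases upstream of a RefSeq start on GRCh38.p14, written 5′ to 3′ on the gene's strand. Capitals mark CACNCCAC, the core of the sterol regulatory element, CCAAT, the box bound by NF-Y, and ACGTG, the core letters of hypoxia response elements, on either strand.
INSIG2: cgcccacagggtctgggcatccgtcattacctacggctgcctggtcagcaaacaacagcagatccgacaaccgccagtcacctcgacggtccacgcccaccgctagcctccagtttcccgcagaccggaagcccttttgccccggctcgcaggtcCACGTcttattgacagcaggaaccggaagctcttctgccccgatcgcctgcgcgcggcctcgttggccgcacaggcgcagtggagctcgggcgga
INSIG1: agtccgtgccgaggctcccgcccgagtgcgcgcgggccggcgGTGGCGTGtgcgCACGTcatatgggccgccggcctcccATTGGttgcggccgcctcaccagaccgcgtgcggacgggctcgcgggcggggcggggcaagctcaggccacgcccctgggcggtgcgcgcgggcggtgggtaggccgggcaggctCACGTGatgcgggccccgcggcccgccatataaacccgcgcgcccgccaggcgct
TM7SF2: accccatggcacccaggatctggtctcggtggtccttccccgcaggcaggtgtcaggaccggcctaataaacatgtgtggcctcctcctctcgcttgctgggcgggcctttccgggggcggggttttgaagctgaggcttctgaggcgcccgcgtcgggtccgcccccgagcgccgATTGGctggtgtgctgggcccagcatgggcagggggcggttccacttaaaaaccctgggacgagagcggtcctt
MSMO1: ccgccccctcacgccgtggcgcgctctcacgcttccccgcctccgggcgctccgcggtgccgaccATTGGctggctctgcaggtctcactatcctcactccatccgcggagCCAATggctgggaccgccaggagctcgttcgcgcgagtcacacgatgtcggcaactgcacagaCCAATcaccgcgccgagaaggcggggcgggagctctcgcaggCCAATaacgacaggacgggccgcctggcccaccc
HMGCS1: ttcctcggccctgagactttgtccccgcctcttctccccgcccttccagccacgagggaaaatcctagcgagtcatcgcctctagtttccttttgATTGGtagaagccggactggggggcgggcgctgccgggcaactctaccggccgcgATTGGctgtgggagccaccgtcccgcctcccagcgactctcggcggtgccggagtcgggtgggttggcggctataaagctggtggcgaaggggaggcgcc
SREBF2: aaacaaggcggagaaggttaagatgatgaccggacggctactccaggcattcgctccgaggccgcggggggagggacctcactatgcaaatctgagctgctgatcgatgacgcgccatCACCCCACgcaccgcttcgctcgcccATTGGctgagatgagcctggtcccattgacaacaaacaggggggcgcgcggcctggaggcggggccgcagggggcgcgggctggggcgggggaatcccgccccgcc
The windows lie at chr2:118088221-118088470 (plus strand) for INSIG2, chr7:155297628-155297877 (plus strand) for INSIG1, chr11:65111622-65111871 (plus strand) for TM7SF2, chr4:165327419-165327668 (plus strand) for MSMO1, chr5:43313413-43313662 (minus strand) for HMGCS1 and chr22:41832855-41833104 (plus strand) for SREBF2. The INSIG2 window held ACGTG 1 time, 95 bases before the start on the minus strand of the window, and neither CACNCCAC nor CCAAT. The INSIG1 window held CACNCCAC 208 bases and CCAAT 170 bases before the start. It held ACGTG 196, 55 and 54 bases before the start, and the matches at 55 and 54 are opposite strands of 1 CACGTG. The MSMO1 window held CCAAT 4 times, the HMGCS1 window 2 times and the TM7SF2 window 1 time, while the window of another HMGCS1 start held none of the motifs. The SREBF2 window held CACCCCAC 132 bases before the start.

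RefSeq promoters were matched for 29 of the 33 members. ACAT2, FDFT1, SQLE and FASN had no entry. Exact matches were sought on both strands in the 250 upstream bases of any listed start of a gene. These 29 members have 39 listed promoters, and shares of all 35116 promoters are given per promoter. CCAAT was found in 21 of the 29 members, or 25 of their 39 promoters, and 32.0% of all promoters held it. CACNCCAC was found in 6 members (ACACA, IDI1, INSIG1, SC5D, SCD and SREBF2), with 6 promoters of 39, against 4.87% of promoters. TCACNCCAC, the longer form that contains CACNCCAC, was found in SREBF2 alone, in 1 promoter of 39, against 0.883% of promoters. CACGTG, the E-box, was found in INSIG1, SC5D and SCAP, with 4 promoters of 39, against 6.34%. ACGTG, which lies within CACGTG and was added after the data had been seen, was found in 8 members, INSIG2 among them, with 10 promoters of 39, against 18.5%. A match describes the letters and is no binding site, and no match says nothing about a factor.

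Most members differed little between the hairpins, and the small differences mostly pointed down in HCC-LM3 cells and up in Huh-7 cells, the pattern on which the set was chosen. Of the 33 members, 31 reached a mean of 1 CPM in both cell lines. NPC1L1 and the entry with the symbol ACACA did not. Beyond 1.2-fold, only TM7SF2 was lower in the sh-WDR4-2 library of HCC-LM3 cells and only INSIG2 was higher, 1 of 31 each, beside 5.32% and 8.4% of all 12683 genes measured there. In Huh-7 cells 0 of 31 members were lower and 0 were higher beyond 1.2-fold, beside 4.19% and 3.53% of 11971 genes. No member passed 1.2-fold in opposite directions, beside 0.797% of the 11537 genes measured in both lines.

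At 1.1-fold, 8 of 31 members were lower in HCC-LM3 cells, beside 17.4% of all genes, and 1 was higher, INSIG2, beside 19.1%. The 8 were PMVK, MVD, LSS, TM7SF2, MSMO1, EBP, SCAP and FADS2. In Huh-7 cells 3 members were higher, HMGCS1, MVK and MSMO1, beside 10.7%, and 0 were lower, beside 13% of all genes. MSMO1 alone passed 1.1-fold in opposite directions, beside 4.75%.

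Counted at any size, 25 of 31 members were lower in the sh-WDR4-2 library of HCC-LM3 cells, beside 51.1% of all genes, and 24 of 31 were higher in that of Huh-7 cells, beside 49%. Both held for 20 of 31 members, beside 24.9%. The median log2 fold change of the members was -0.05 in HCC-LM3 cells, where that of all genes was -0.0033, and 0.04 in Huh-7 cells, where that of all genes was -0.0021. The median difference between the lines, HCC-LM3 minus Huh-7, was -0.11 for the members and -0.0065 for all genes. The members were chosen with these directions in view, so nothing is read from the counts.

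Counting error was of the same order as many of these folds. The 95% exact conditional binomial interval covers counting error only. Its median half-width over the 31 members was 0.061 on the log2 scale in HCC-LM3 cells and 0.051 in Huh-7 cells. In HCC-LM3 cells the interval lay wholly below 0 for 16 of 31 members, beside 21.5% of all genes, and wholly above 0 for 3, INSIG2, STARD4 and SCD, beside 20.6%. In Huh-7 cells it lay wholly above 0 for 13 members, beside 15%, and wholly below 0 for 4, PMVK, SC5D, FADS1 and SCD, beside 15.1%. It lay below 0 in HCC-LM3 cells and above 0 in Huh-7 cells for 7 members, ACAT2, MVD, FDFT1, CYP51A1, MSMO1, EBP and FASN, beside 3.13% of all genes. The reverse held for SCD alone, 1 of 31, beside 2.89%. The interval narrows as counts rise, and all genes were not matched to the members in counts. Nothing is therefore read from the members' counts beside these shares.

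**Figure D1:**
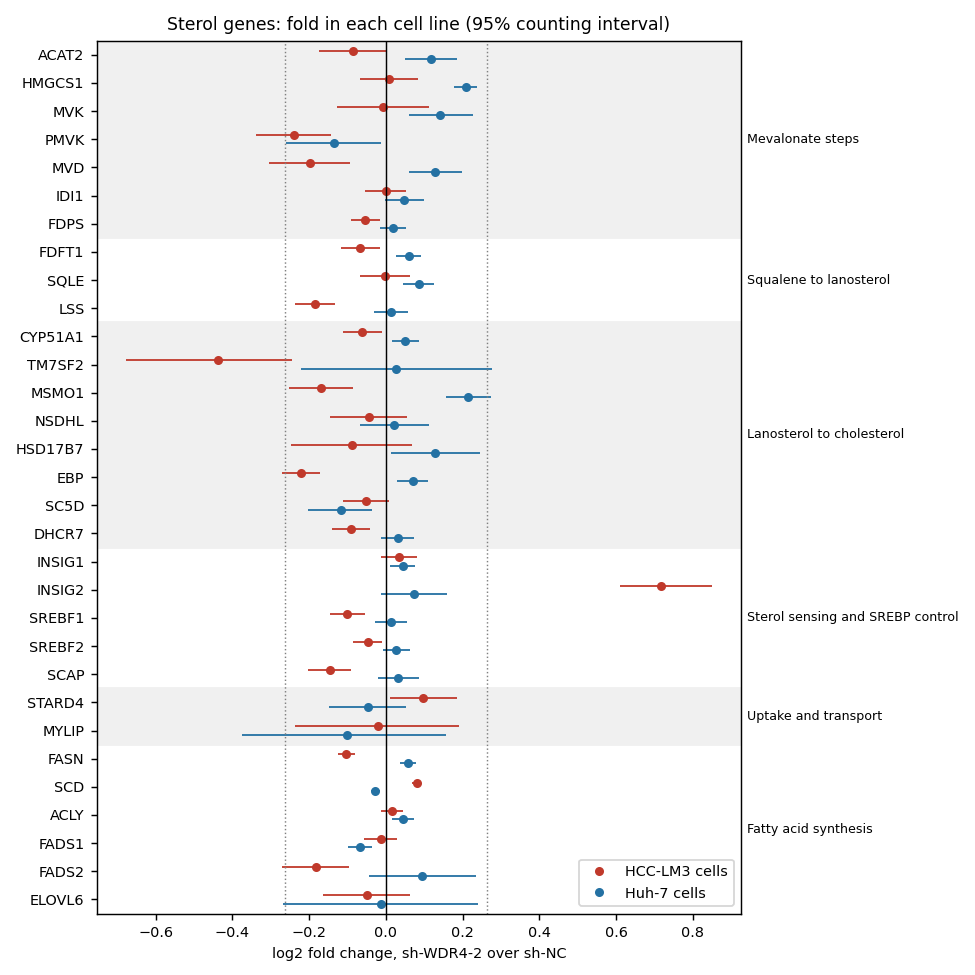
Log2 fold change of sh-WDR4-2 over sh-NC (horizontal axis) for the 31 members of at least 1 CPM, red for HCC-LM3 and blue for Huh-7 cells, with bars for the 95% counting interval and dotted lines at 1.2-fold. INSIG2 stands apart at 0.72 in HCC-LM3 cells and TM7SF2 at -0.44, while every Huh-7 point lies between -0.13 and 0.21.

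The first steps, from acetyl-CoA to farnesyl diphosphate, had the highest median of the roles in Huh-7 cells. HMGCS1 is HMG-CoA synthase and is encoded on the minus strand of chromosome 5 (GRCh38, 43289395 to 43313512). It had 534 CPM in the sh-WDR4-2 and 463 in the sh-NC library of Huh-7 cells, and 77.6 and 77.1 CPM in those of HCC-LM3 cells. The log2 fold change was 0.21 (counting interval 0.18 to 0.24) in Huh-7 and 0.01 (-0.07 to 0.08) in HCC-LM3 cells, so the libraries separated in Huh-7 cells only by this interval. MVD, the diphosphomevalonate decarboxylase that makes isopentenyl diphosphate, had 37.8 and 43.5 CPM in the sh-WDR4-2 and sh-NC libraries of HCC-LM3 cells and 98.4 and 90.0 CPM in those of Huh-7 cells. Its log2 fold changes were -0.20 and 0.13, a difference of -0.33 between the lines (counting interval -0.45 to -0.20).

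PMVK, the phosphomevalonate kinase before MVD, was the one mevalonate enzyme that was lower in both lines. It had 42.8 and 50.6 CPM in the sh-WDR4-2 and sh-NC libraries of HCC-LM3 cells and 28.7 and 31.5 CPM in those of Huh-7 cells. Its log2 fold changes were -0.24 (-0.34 to -0.14) and -0.13 (-0.26 to -0.01), the first just short of 1.2-fold. ACAT2, the thiolase that joins acetyl-CoA units, had 37.0 and 39.4 FPKM in HCC-LM3 and 58.7 and 54.2 FPKM in Huh-7 cells, log2 fold changes of -0.09 and 0.12. MVK, mevalonate kinase, had 30.4 and 30.6 CPM in HCC-LM3 and 69.8 and 63.3 CPM in Huh-7 cells, log2 fold changes of -0.01 and 0.14. IDI1, the isomerase of isopentenyl diphosphate, and FDPS, farnesyl diphosphate synthase, stayed between -0.05 and 0.05 in both lines. Over the 7 mevalonate genes the median was -0.05 in HCC-LM3 cells and 0.12 in Huh-7 cells. At any size 5 were lower in the first and higher in the second, beside 24.9% of all genes, and nothing is read from this.

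The 3 genes from squalene to lanosterol were all lower in HCC-LM3 and higher in Huh-7 cells at any size, beside 24.9% of all genes. The medians were -0.07 and 0.06. Only FDFT1 had counting intervals on opposite sides of 0, and those of SQLE in HCC-LM3 and LSS in Huh-7 cells held 0. Nothing is read from the count. FDFT1, squalene synthase, had 166 and 174 CPM in the sh-WDR4-2 and sh-NC libraries of HCC-LM3 cells and 439 and 421 CPM in those of Huh-7 cells, log2 fold changes of -0.07 and 0.06. SQLE, the squalene epoxidase that is a slow step of the pathway, had 102 CPM in both HCC-LM3 libraries and 283 and 267 CPM in Huh-7 cells, log2 fold changes of -0.0021 and 0.08. LSS, which closes the sterol rings to give lanosterol, was the lowest of the 3 in HCC-LM3 cells, with 153 and 174 CPM and a log2 fold change of -0.18 (-0.24 to -0.13). In Huh-7 cells LSS had 231 and 229 CPM, a log2 fold change of 0.01 (-0.03 to 0.06).

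From lanosterol to cholesterol, 8 of 8 genes were lower in HCC-LM3 cells at any size, beside 51.1% of all genes. In Huh-7 cells 7 of 8 were higher, beside 49%, and the medians were -0.09 and 0.04. The counting intervals of NSDHL, HSD17B7 and SC5D in HCC-LM3 cells and of TM7SF2, NSDHL and DHCR7 in Huh-7 cells held 0. The members were chosen with these directions in view, so nothing is read from the counts. MSMO1, the methylsterol monooxygenase that starts the removal of the last methyl groups, had the widest split among the 7 members whose intervals lay below 0 in HCC-LM3 and above 0 in Huh-7 cells. It lies on chromosome 4 from 165327623 to 165343160, plus strand, and had 59.5 and 66.9 CPM in the sh-WDR4-2 and sh-NC libraries of HCC-LM3 cells and 143 and 123 CPM in those of Huh-7 cells. The log2 fold change was -0.17 (-0.25 to -0.09) in HCC-LM3 and 0.21 (0.16 to 0.27) in Huh-7 cells, a difference of -0.38 (-0.49 to -0.28). The partners of MSMO1 in that removal were nearer to 0. NSDHL, a sterol dehydrogenase, had log2 fold changes of -0.05 and 0.02, and HSD17B7, the reductase that completes the step, -0.09 and 0.13.

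TM7SF2, a sterol reductase, was the lowest member in HCC-LM3 cells and one of the least abundant. It had 8.58 and 11.8 CPM in the sh-WDR4-2 and sh-NC libraries of HCC-LM3 cells and 7.71 and 7.56 CPM in those of Huh-7 cells. The log2 fold change was -0.44 (-0.68 to -0.25) in HCC-LM3 and 0.03 (-0.22 to 0.28) in Huh-7 cells, the widest counting intervals among the enzymes of cholesterol synthesis. Its HCC-LM3 sh-NC library stood above the other 3. EBP, the isomerase that moves a double bond of the sterol nucleus, had 166 and 193 CPM in HCC-LM3 and 296 and 282 CPM in Huh-7 cells. Its log2 fold changes were -0.22 (-0.27 to -0.17) and 0.07 (0.03 to 0.11).

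CYP51A1, the cytochrome P450 that demethylates lanosterol, had 167 and 174 CPM in HCC-LM3 and 373 and 360 CPM in Huh-7 cells, log2 fold changes of -0.06 and 0.05. DHCR7, the reductase of the final step, had log2 fold changes of -0.09 and 0.03. SC5D, the desaturase before DHCR7, was the exception among these 8 in Huh-7 cells, where it had 8.43 and 9.17 FPKM, a log2 fold change of -0.12 (-0.20 to -0.04). In HCC-LM3 cells SC5D had 17.9 and 18.5 FPKM, a log2 fold change of -0.05 (-0.11 to 0.01). Over all 18 enzymes of cholesterol synthesis in the set, 17 were lower in HCC-LM3 cells, beside 51.1% of all genes at any size. In Huh-7 cells 16 were higher, beside 49%, and both held for 15, beside 24.9%. The medians were -0.08 and 0.05. IDI1 in HCC-LM3 cells, at -0.00079, changed sign with the size factors of DESeq2. The members were chosen with these directions in view, so nothing is read from these counts.

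INSIG2 was the member that differed most between the hairpins. It encodes an anchor protein of the endoplasmic reticulum that holds SCAP back when sterols are plentiful, and lies on chromosome 2 from 118088452 to 118110997, plus strand. It had 40.0 CPM in the sh-WDR4-2 and 24.1 CPM in the sh-NC library of HCC-LM3 cells, and 65.1 and 61.9 CPM in those of Huh-7 cells. The HCC-LM3 sh-NC library was the lowest of the 4, and the HCC-LM3 sh-WDR4-2 library lay between it and both Huh-7 libraries. The log2 fold change was 0.72 (0.61 to 0.85) in HCC-LM3 and 0.07 (-0.01 to 0.16) in Huh-7 cells, a difference of 0.64 (0.51 to 0.80).

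The other genes of sterol sensing were nearer to 0 than INSIG2 in HCC-LM3 cells. INSIG1, the paralog of INSIG2 whose own transcription is driven by SREBP, had 205 and 200 CPM in the sh-WDR4-2 and sh-NC libraries of HCC-LM3 cells and 457 and 443 CPM in those of Huh-7 cells. Its log2 fold changes were 0.03 (-0.01 to 0.08) and 0.04 (0.01 to 0.08). SCAP, the escort of SREBP, had 136 and 151 CPM in HCC-LM3 and 163 and 159 CPM in Huh-7 cells, log2 fold changes of -0.15 and 0.03. SREBF2, which encodes the SREBP that mainly drives cholesterol genes, had log2 fold changes of -0.05 and 0.03. SREBF1, which encodes the SREBP that mainly drives fatty acid genes, had -0.10 and 0.01. Without INSIG2, 0 members were higher beyond 1.2-fold in HCC-LM3 cells.

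A list of hypoxia and glycolysis genes, drawn up with earlier results of these data known, also differed between the HCC-LM3 libraries. All 12 of its genes were higher in the sh-WDR4-2 library, 11 of them beyond 1.2-fold, beside the 8.4% of all genes given above, with a median of 0.74 and a summed level of 3661 against 2115 CPM. In Huh-7 cells 1 of the 12, ANKRD37, was higher beyond 1.2-fold, beside 3.53% of all genes. The median there was 0.11, and the summed level was 4972 against 4849 CPM. NDRG1, a stress-responsive gene, and PFKFB4, a regulator of glycolysis, had the largest log2 fold changes in HCC-LM3 cells, 1.41 and 1.38, with -0.05 and 0.11 in Huh-7 cells. EGLN3, an oxygen-sensing prolyl hydroxylase, had 1.23 and 0.11, and BNIP3, of mitochondrial turnover, had 1.204 and 0.08. Because of how the list was chosen, nothing is read from its counts. The part of this list in the INSIG2 result was not tested.

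**Figure D2:**
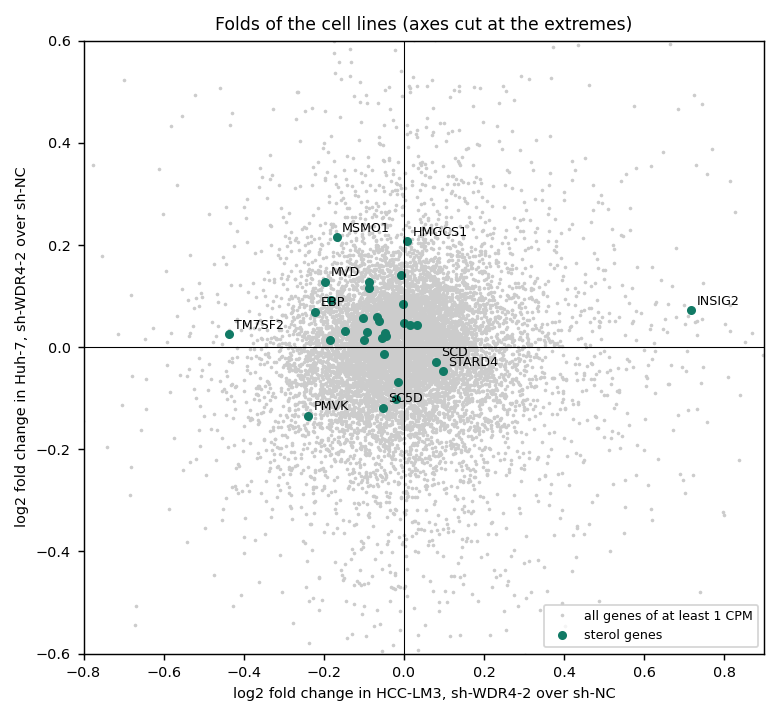
Log2 fold change of sh-WDR4-2 over sh-NC, with HCC-LM3 cells on the horizontal and Huh-7 cells on the vertical axis, for the 31 members in green and all genes of at least 1 CPM in grey, with 109 of 11537 genes beyond the axes and not drawn. Most members lie within the cloud to the upper left of the origin, and INSIG2 lies at 0.72 and 0.07.

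Of 2 measured uptake and transport genes, 0 were lower in HCC-LM3 and higher in Huh-7 cells, beside 24.9% of all genes. With 2 genes nothing is read from this. STARD4, a carrier of sterols between membranes, had 59.5 and 55.7 CPM in the sh-WDR4-2 and sh-NC libraries of HCC-LM3 cells and 44.5 and 46.0 CPM in those of Huh-7 cells, log2 fold changes of 0.10 and -0.05. MYLIP, a ubiquitin ligase that removes lipoprotein receptors from the cell, had 9.83 and 9.98 CPM in HCC-LM3 and 6.48 and 6.99 CPM in Huh-7 cells. Its log2 fold changes of -0.02 and -0.10 both had counting intervals that held 0. NPC1L1, the intestinal sterol transporter, had 3 and 0 counts in the HCC-LM3 libraries and 3 and 4 in the Huh-7 libraries, at or near the floor of 3 counts, so no fold is given.

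Fatty acid genes, which the SREBP factors also drive, were mixed. FASN, fatty acid synthase, had 878 and 943 CPM in the sh-WDR4-2 and sh-NC libraries of HCC-LM3 cells and 1086 and 1044 CPM in those of Huh-7 cells, log2 fold changes of -0.10 (-0.12 to -0.08) and 0.06 (0.04 to 0.08). SCD, the desaturase that makes oleate, had the opposite pair, with 3075 and 2910 CPM in HCC-LM3 and 3243 and 3308 CPM in Huh-7 cells, log2 fold changes of 0.08 (0.07 to 0.09) and -0.03 (-0.04 to -0.02). SCD was the most abundant member in every library, with FPKM of 602, 570, 553 and 565 in the order HCC-LM3 sh-WDR4-2, HCC-LM3 sh-NC, Huh-7 sh-WDR4-2 and Huh-7 sh-NC. ACLY, which makes acetyl-CoA from citrate, had log2 fold changes of 0.02 and 0.04, and ELOVL6, which lengthens palmitate, had -0.05 and -0.01.

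FADS1 and FADS2, desaturases of polyunsaturated fatty acids, lie on opposite strands of chromosome 11, with FADS1 inside the span of FADS2. FADS2 had 53.8 and 61.1 CPM in HCC-LM3 and 24.3 and 22.7 CPM in Huh-7 cells, log2 fold changes of -0.18 (-0.27 to -0.10) and 0.09 (-0.05 to 0.24). FADS1 had 230 and 233 CPM in HCC-LM3 and 433 and 453 CPM in Huh-7 cells, log2 fold changes of -0.01 and -0.07. They share exon bases in GENCODE release 29, and whether the counting used strand is not given in the sources used here, so reads from that stretch cannot be told apart. In all, 7 members share exon bases with another coding gene (ACAT2, MVK, CYP51A1, TM7SF2, SREBF1, FADS1 and FADS2), and 5 have pseudogenes of their own name, FDPS with 8, CYP51A1 with 3, HSD17B7 with 2, SCD and FADS2 with 1 each.

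ACACA, the acetyl-CoA carboxylase that commits carbon to fatty acids, could not be read under its symbol. That entry had 12, 24, 16 and 10 counts over a length of 1159 bases. Its symbol is 1 of 231 in the table that break the order of the rest. That order points instead to the entry with the symbol CXCL3, which is 9914 bases long, close to the 9961 bases of the longest coding ACACA transcript in GENCODE release 29. The CXCL3 entry had 5606 and 8165 counts in the sh-WDR4-2 and sh-NC libraries of HCC-LM3 cells and 13184 and 13641 in those of Huh-7 cells. In CPM these were 176 and 188, and 386 and 372, log2 fold changes of -0.10 (-0.15 to -0.05) and 0.05 (0.02 to 0.09). The other 32 members stand in order. The reading of ACACA from this entry was made after the data had been seen, and neither entry was renamed in the counts of members.

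**Figure D3:**
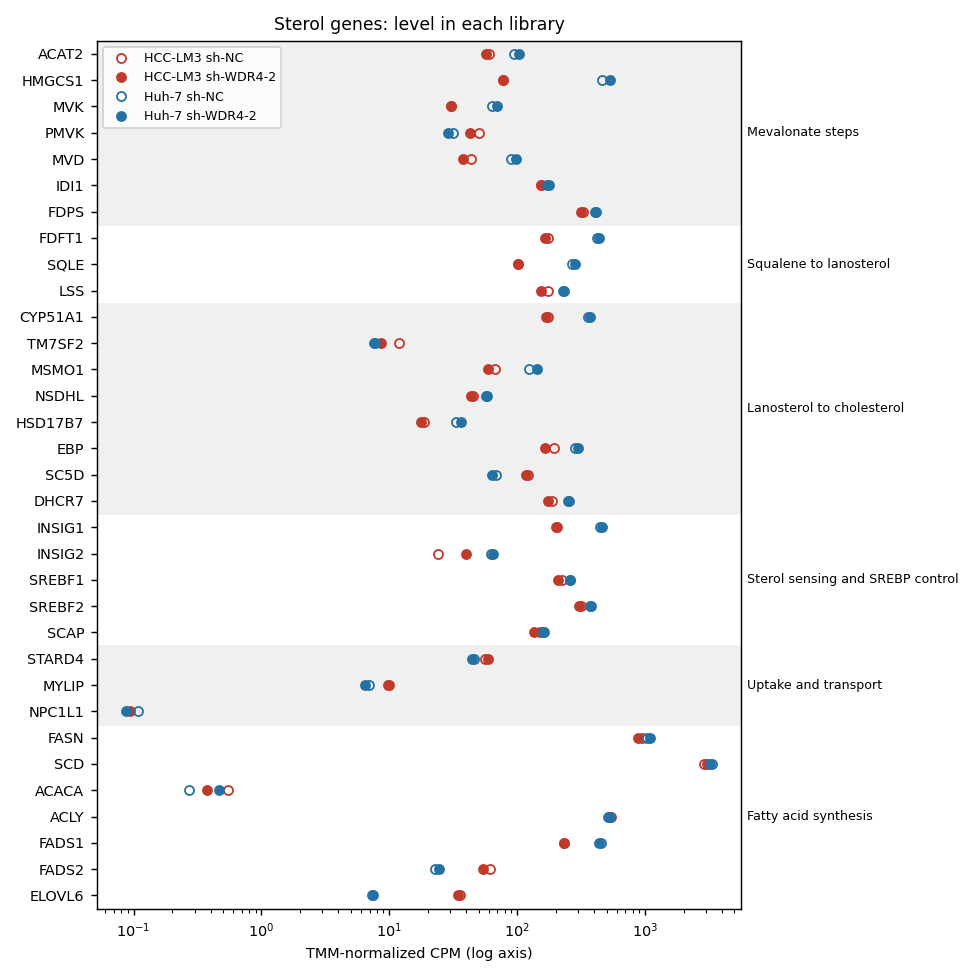
Scaled CPM (horizontal log axis) of the 33 members in each library, open circles for sh-NC and filled circles for sh-WDR4-2, red for HCC-LM3 and blue for Huh-7 cells. The colours stand farther apart than open and filled circles for most members, as for HMGCS1 at 77.1 to 77.6 CPM in HCC-LM3 and 463 to 534 CPM in Huh-7 cells. NPC1L1 is not drawn where its count was 0, and ACACA is drawn under its own symbol.

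For 29 of 31 members the difference between the cell lines after TMM scaling was larger, on the log2 scale, than that between the hairpins in either line, the exceptions being TM7SF2 and ACLY. The comparison of the 2 Huh-7 with the 2 HCC-LM3 libraries, averaged over the hairpins, was fitted with edgeR across 12693 genes. The CPM in all 4 libraries were among the values chosen on, so the members' values in this fit are a description and carry no p-value here. There was 1 library of each line and hairpin and 1 residual degree of freedom, so the fit knows only the spread between these libraries. TMM scaling adds 0.20 to each of these log2 fold changes. By the rule applied to all genes, an adjusted p under 0.05 and a change beyond 2-fold, 9 of 31 members were higher in Huh-7 libraries, beside 12.8% of all genes, and 2 of 31 were lower, beside 14.4%. The median log2 fold change of the members was 0.37, where that of all genes was -0.0052. Nothing is read from these counts.

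The 9 higher genes lay at several points of the pathway. HMGCS1 had the largest difference, a log2 fold change of 2.68 with a standard error of 0.06, and both Huh-7 libraries lay above both HCC-LM3 libraries. MVD and MVK followed among the mevalonate genes, at 1.21 and 1.12. Both squalene genes were higher, SQLE at 1.44 and FDFT1 at 1.34, while LSS at 0.49 did not pass 2-fold. Of the later steps CYP51A1 at 1.105 and MSMO1 at 1.07 passed, and of the sensing genes INSIG1 at 1.15 and INSIG2 at 1.03. HSD17B7 and FADS1, both at 0.94, did not pass 2-fold.

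Some members fell below or rose past 2-fold when 1 library was left out, in fits that also left out the hairpin block. MSMO1 was at 0.99 without the HCC-LM3 sh-WDR4-2 library and at 0.96 without the Huh-7 sh-WDR4-2 library, below 2-fold each time. INSIG2, whose HCC-LM3 libraries differed, had a standard error of 0.20. It was at 0.67 without the HCC-LM3 sh-NC library and 0.96 without the Huh-7 sh-WDR4-2 library, below 2-fold each time. Without the Huh-7 sh-NC library it was at 1.03, and without the HCC-LM3 sh-WDR4-2 library at 1.40, both above 2-fold. With all 4 libraries and no block INSIG2 was at 0.998, already below 2-fold. HSD17B7 passed only without the Huh-7 sh-NC library, at 1.00.

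The 2 lower genes belong to fatty acid synthesis. ELOVL6 had 34.3 and 35.5 CPM in HCC-LM3 and 7.35 and 7.43 CPM in Huh-7 cells, a log2 fold change of -2.24 with a standard error of 0.11. FADS2 was at -1.29. SC5D at -0.85, PMVK at -0.63, MYLIP at -0.56, TM7SF2 at -0.41 and STARD4 at -0.35 were also lower in Huh-7 libraries without passing 2-fold. ACLY was the member nearest to 0, at -0.03 with a standard error of 0.04. The CXCL3 entry was at 1.06.

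Per length, the summed FPKM of the 3 genes from squalene to lanosterol, scaled by the TMM factors, was 2.15 times as high in Huh-7 as in HCC-LM3 cells between the sh-NC libraries and 2.38 times between the sh-WDR4-2 libraries. The scaled ratio was 1.42 and 1.56 for the mevalonate genes, 1.501 and 1.75 for lanosterol to cholesterol, and 1.53 and 1.57 for sterol sensing. It was 0.805 and 0.733 for uptake and transport. For the fatty acid genes it was 1.13 and 1.09, and the direction turned with the scaling, since the deposited FPKM gave 0.985 and 0.953. As deposited, the ratios of the other roles were 1.88 and 2.07, 1.24 and 1.36, 1.31 and 1.52, 1.33 and 1.37, and 0.702 and 0.638, in the same order. By FPKM, SCD, FDPS and EBP held the top ranks, in this order, in all 4 libraries. Of the 33 members, 21 kept their rank between the HCC-LM3 libraries, 23 between the Huh-7 libraries and 7 between the sh-NC libraries of the lines. HMGCS1 ranked 27 in the HCC-LM3 sh-NC and 12 in the Huh-7 sh-NC library.

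**Figure D4:**
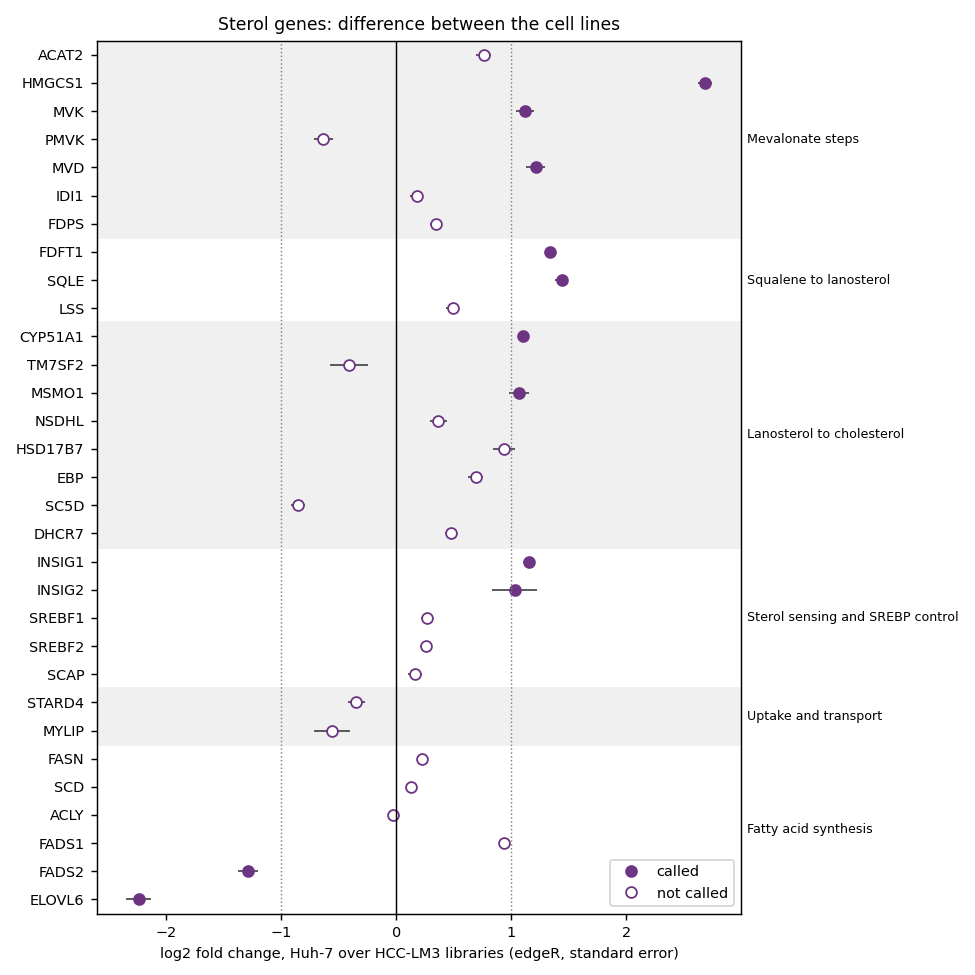
Log2 fold change of the Huh-7 over the HCC-LM3 libraries (horizontal axis) by edgeR for the 31 members, with bars for the standard error and dotted lines at 2-fold. The 9 filled points to the right and the 2 to the left were called, from HMGCS1 at 2.68 to ELOVL6 at -2.24.

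For other genes of sterol handling outside the set, counts beyond 1.2-fold stand beside the shares of all genes, 5.32% lower and 8.4% higher in HCC-LM3 and 4.19% lower and 3.53% higher in Huh-7 cells. With lists this short, counts of 0 or 1 lie near those shares, and nothing is read from them. Of 14 genes that process SREBP or sense sterols in the endoplasmic reticulum, 0 passed in either line or direction, with medians of 0.01 in HCC-LM3 cells and -0.01 in Huh-7 cells. Within that list, the COPII coat genes SEC24D and SEC23A, which carry SCAP with SREBP to the Golgi, had log2 fold changes of -0.14 and 0.01 in HCC-LM3 and 0.16 and 0.16 in Huh-7 cells, and PAQR3 and ERLIN2 had 0.01 and 0.10, and -0.11 and -0.07. Of 14 other lipid genes that respond to SREBP, 1 was lower beyond 1.2-fold in HCC-LM3 cells, MID1IP1, an activator of acetyl-CoA carboxylase, at -0.33, and 0 were higher. In Huh-7 cells 0 of the 14 passed, and the medians were 0.00072 and 0.05. PCYT2, of phosphatidylethanolamine synthesis, was at -0.22 and 0.07, HSD17B12, of fatty acid elongation, at 0.21 and 0.08, and AACS, acetoacetyl-CoA synthetase, at 0.15 and 0.03.

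The isoprenoid branch, which leads from farnesyl diphosphate to ubiquinone, dolichol and prenylated proteins, had 0 of 11 measured genes past 1.2-fold in HCC-LM3 and 0 of 10 in Huh-7 cells, with medians of -0.05 and 0.01. Its named genes were COQ2 at -0.21 and -0.08, PGGT1B at 0.17 and 0.10, RABGGTA at -0.08 and 0.14, and DHDDS at -0.13 and -0.01. Of 12 measured genes of sterol storage, trafficking and export, 1 was higher beyond 1.2-fold in HCC-LM3 cells, and 0 passed in Huh-7 cells. The 1 was the sterol exporter gene ABCG1 at 0.29, named after its value was seen. It averaged less than 5 CPM in HCC-LM3 cells. The medians were 0.0022 and -0.04. SCARB1, the receptor of high-density lipoprotein, was at 0.18 and 0.08, and NPC1 and NPC2, which release cholesterol from lysosomes, were at -0.12 and -0.04 in HCC-LM3 and -0.13 and -0.18 in Huh-7 cells. NR1H3, a sterol-sensing nuclear receptor, was at 0.01 and -0.20.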

How the data were processed

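RNA from HCC-LM3 and Huh-7 cells was sequenced as 4 libraries, 1 per cell line and hairpin. Raw counts, unnormalized whole numbers, and FPKM were deposited by the authors in 1 table keyed by symbol. The authors' FPKM divide each count by a gene length and the library total. The labels name a TruSeq kit and the methods of the study a VAHTS kit on NovaSeq, the extraction label of the Huh-7 libraries names retinas, and the submitters' processing notes list Bowtie 0.12.2 with the mouse builds mm8 and mm9. No counting tool or human annotation is given in the sources used here. Coordinates are from GENCODE release 29 on GRCh38, and promoters from RefSeq on GRCh38.p14.

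Counts were scaled by TMM (factors 1.07, 1.07, 0.933 and 0.934), and folds within a cell line were computed on log2(CPM + 0.5), which understates those of low genes, for genes whose mean CPM in that line reached 1. They carry no p-value. Intervals of a fold (95%, exact conditional binomial) cover counting error only, and PCR reads without molecular identifiers are not independent molecules. Intervals of a difference between the lines (95%) are normal approximations of counting error. Both kinds use scaled count ratios without the pseudocount. The lines were compared with edgeR 4.0.16 (robust quasi-likelihood test, Benjamini-Hochberg adjustment, hairpin as a block) in R 4.3.3, with DESeq2 1.42.0 as an alternative, and called at an adjusted p under 0.05 and an absolute log2 fold change over 1. Both calculations were tested on simulated data. Standard errors between the lines were taken as the absolute log2 fold change over the square root of its F statistic. The rest was computed with pandas 2.3.3, numpy 2.4.6 and scipy 1.17.1 under Python 3.11.15.

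The members and lists were chosen with earlier results of these data known. The text names all members, WDR4 and at most 4 genes per other list, those with the largest absolute log2 fold change in either line among genes of at least 5 CPM. ABCG1 and ANKRD37 fall outside this and were named after their values were seen. Symbols were placed by the order of a dictionary of 32768 places with 15 places tried, and 27 of the 231 out of order are dates. Alternatives were other scaling, pseudocounts of 0.1 and 1, the deposited FPKM, no filter or a mean of 10 CPM, and thresholds of 1.1, 1.5 and 2-fold. Between the lines they were also no block, and leaving out each library together with the block. Reading ACACA from the CXCL3 entry, leaving out INSIG2 and the motif ACGTG were added after the data had been seen. Some genes of the pathway are not reported here.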

Additional observations from a re-analysis of the deposited data

Results flagged for a closer look

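For 8 of 31 members the counting intervals lay on opposite sides of 0 in the cell lines, 7 of them below 0 in HCC-LM3 and above 0 in Huh-7 cells, beside 3.13% of all genes, and 1 the reverse, beside 2.89%, so that the sh-WDR4-2 library was on one side of its control in 1 line and on the other side in the other. The interval narrows as counts rise, and all genes were not matched to the members in counts. With 1 library per group the differences between the lines were not tested. They are given as the log2 fold change of sh-WDR4-2 over sh-NC in HCC-LM3 minus that in Huh-7 cells. The differences were -0.38 for MSMO1, -0.33 for MVD, -0.29 for EBP, -0.20 for ACAT2, -0.16 for FASN, -0.13 for FDFT1 and -0.11 for CYP51A1. SCD was the one with the opposite sign, at 0.11. The direction was among the values on which the members were chosen.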

How the results depend on the processing

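The medians kept their sign under every alternative, from -0.06 to -0.05 in HCC-LM3 and from 0.04 to 0.05 in Huh-7 cells. All 330 member folds under the 5 alternatives of scaling, pseudocount and unit moved by less than their counting interval, and 1 near 0 changed sign, IDI1 in HCC-LM3 cells from -0.00079 to 0.00010 with the size factors of DESeq2. With no filter, the ACACA symbol entered, giving 2 members lower in HCC-LM3 cells, 1 higher in Huh-7 cells and 1 in opposite directions. At 1.1-fold these counts were 8, 3 and 1. At 1.5-fold 0 members were lower in HCC-LM3 cells, and at 2-fold 0 were lower and 0 higher. Without INSIG2, 0 members were higher in HCC-LM3 cells. Between the cell lines, leaving out each library gave 7 to 9 members higher in Huh-7 cells and 2 lower each time, and DESeq2, its size factors in edgeR and the other filters each gave 9 and 2. With no replicate block the counts were 8 and 2, and INSIG2 lost its call. The fits that left out a library had no block either. With 1 library per group, depth limits each fold only through counting error, and the spread between cultures is unknown.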
